A study of Physcomitrium patens with 10 samples.

Results

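The miR535 family of the moss Physcomitrium patens is described here through 4 mature miRNA names, ppt-miR535a, ppt-miR535b, ppt-miR535c and ppt-miR535d, which are all the names beginning with ppt-miR535 among the 280 miRNA names in the deposited level tables. They were taken by name, not by level. Gametophores, the leafy shoots of the moss, were grown on BCD medium and sampled in 5 states: HD, before drying, while hydrated; MDH, after moderate dehydration; SDH, after severe dehydration to the desiccated state; PRE, after partial rehydration; and FRE, after full rehydration. No strain, age or sampling time was given in the labels used here. The titles give 2 samples for each state, 10 in all, while the treatment label goes against the title for 7 of the 10, so each state name below is that of the title and of the matching file column.

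Each level is a single value per state in RPM, meaning reads per 1000000, as the authors deposited it, and which samples entered it is not stated. No value below therefore has a replicate error, no difference was tested, and the number of reads behind a value is unknown. A difference is called here where log2((RPM + 1)/(RPM + 1)) was at least 2-fold in either direction, which is a limit of size and not a test. RPM expresses a level as part of a fixed total, so it is not an amount per cell. In whole gametophores, fewer cells making a miRNA and less of it per cell cannot be told apart.

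Plant miRNAs are short RNAs that guide an Argonaute protein to matching messenger RNAs, which are then cut or kept from being translated. The miR535 family occurs in mosses and in many flowering plants but has not been kept in Arabidopsis, and its mature sequence resembles those of miR156 and miR529. Those relatives target SPL (SBP-box) genes, which encode transcription factors of shoot development, and in rice SPL genes have been reported as targets of miR535 as well. No file used here pairs the miR535 names with a sequence or a genome position, so none is printed.

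Each of the 4 names had its lowest level in partially rehydrated gametophores and its highest in hydrated ones. The name miR535a stood at 117173 RPM in HD, 54655 RPM in MDH, 71554 RPM in SDH, 44330 RPM in PRE and 77144 RPM in FRE. The name miR535d was somewhat more abundant, at 129549 RPM in HD, 63177 RPM in MDH, 79535 RPM in SDH, 48898 RPM in PRE and 84852 RPM in FRE. Both names thus had the same order of states, with HD first, then FRE, SDH, MDH and PRE. Without replicates it is not known which neighbours in that order differ beyond the spread between samples. By RPM, the gap between FRE and SDH, 1.08-fold for miR535a, was the narrowest between neighbours in that order. The gaps depended on scale. With median-of-ratios scaling the log2 difference between SDH and MDH was 0.01 for miR535a and -0.05 for miR535d. Set against the sum of all names outside miR535, miR535a was at -0.15 in FRE and -0.65 in SDH against HD. It was then at -0.76 in MDH and -0.77 in PRE.

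**Figure D1:**
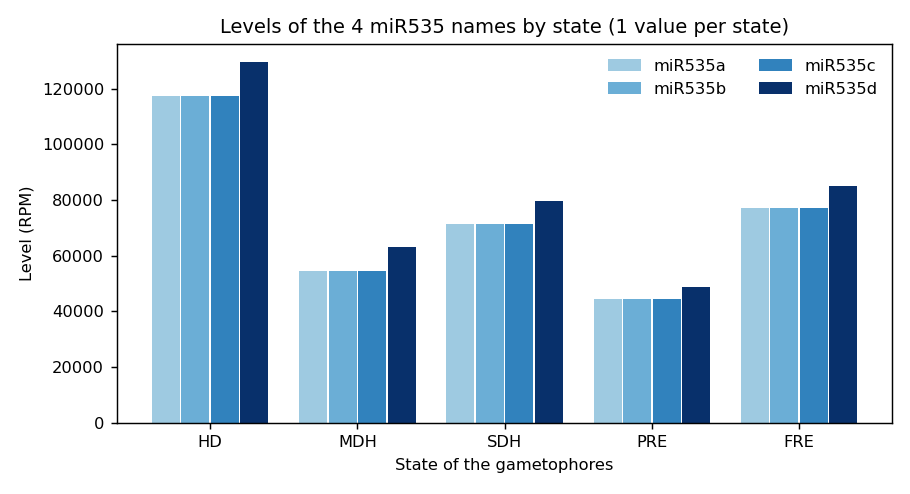
Levels of the 4 miR535 names, in RPM, in each of the 5 states, with 1 bar per name and no error bars because each state has 1 deposited value. All 4 bars are shortest in PRE, where miR535d is at 48898 RPM, and tallest in HD, where it is at 129549 RPM, and miR535d stands above the other names in every state.

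The other names could not be told from miR535a. miR535b and miR535c had the same level as each other in all 5 states, 117172 RPM in HD, 54654 RPM in MDH, 71554 RPM in SDH, 44330 RPM in PRE and 77144 RPM in FRE. They lay 0.2 or 0.3 RPM under miR535a throughout. These 3 names are therefore 1 observation, not 3. How the authors counted reads that match several names was not stated, and the family sum may hold the same reads more than once.

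miR535d carried a surplus over the rest. It exceeded miR535a by 12377 RPM in HD, 8523 RPM in MDH, 7981 RPM in SDH, 4568 RPM in PRE and 7708 RPM in FRE. Relative to miR535a this was 10.6% in HD and 15.6% in MDH, then 11.2% in SDH and 10.3% in PRE, and 9.99% in FRE. Moderate dehydration was the state in which the surplus was proportionally largest. Between MDH and HD it was 1.45-fold lower in MDH, while miR535a was 2.14-fold lower. Between SDH and MDH it was 0.936 times as high in SDH, while miR535a was 1.31 times as high.

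By rank, the 4 names filled the top places in all 5 states: miR535d was first, miR535a second and the other two tied in place 3 of the 280 names. The most abundant name outside the family was miR156c in HD, at 47237 RPM, and miR1023a-3p in the other 4 states, at 45433 RPM in MDH, 38776 RPM in SDH, 26612 RPM in PRE and 24258 RPM in FRE. The lowest miR535 name exceeded it 2.48-fold in HD, 1.20-fold in MDH, 1.85-fold in SDH, 1.67-fold in PRE and 3.18-fold in FRE. The lead was therefore narrowest in moderate dehydration, when miR1023a-3p was at its highest, and widest after full rehydration.

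As a family, miR535 summed to 481066 RPM in HD, 227141 RPM in MDH, 294196 RPM in SDH, 181887 RPM in PRE and 316285 RPM in FRE. Its share of the RPM summed over all 280 names was 57.9% in HD and 45.1% in MDH, then 46.8% in SDH and 44.7% in PRE, and 55.3% in FRE. By this measure HD and FRE were highest and the other 3 states lay between 44.7% and 46.8%. The shares depended on how reads were counted. With near-identical names of a family counted once they were 54.8% in HD and 41.2% in MDH, then 43.2% in SDH and 41.2% in PRE, and 51.9% in FRE. With the highest name standing for each family they were 45.7%, 31%, 32.9%, 30.5% and 39.7% in the same order of states, which put FRE about midway between HD and SDH. Set against 1000000, the 4 names added together came to 48.1% in HD and 22.7% in MDH, then 29.4% in SDH and 18.2% in PRE, and 31.6% in FRE. By this measure FRE lay beside SDH and not beside HD. Reads that match several names may be counted more than once in it, so it is not the part of all reads that were miR535. With near-identical names counted once, the family held 246722 RPM in HD, 117832 RPM in MDH, 151089 RPM in SDH, 93228 RPM in PRE and 161996 RPM in FRE. Under each of the 3 ways of counting names, miR535 was the most abundant family in every state. The next family was miR156, or, by the highest name, miR1023 in the 4 states other than HD, where the lead of miR535 was narrowest in MDH at 1.39-fold.

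**Figure D2:**
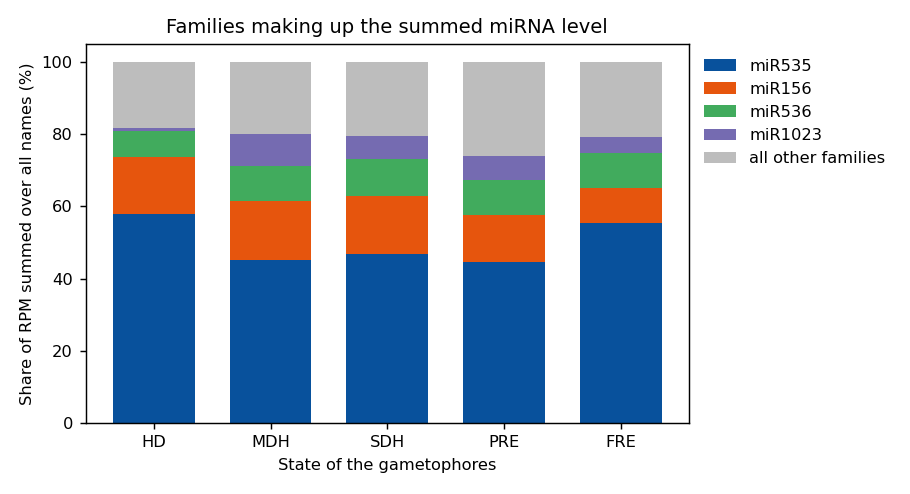
Share, in percent, of the RPM summed over all 280 names that belonged to miR535, miR156, miR536, miR1023 and all other families, stacked for each state. The miR535 part is between 44.7% and 46.8% in MDH, SDH and PRE, 55.3% in FRE and 57.9% in HD, while miR1023 is 9.05% in MDH and 0.713% in HD.

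Moderately dehydrated gametophores were first set against hydrated ones. All 4 miR535 names were at least 2-fold lower in MDH, against 24.4% of all tested names that were lower and 11.0% that were higher. Names were tested where they reached 3 RPM in the higher state, and of those 209 names 51 were lower and 23 higher, or 36 and 30 with median-of-ratios scaling. miR535a was 2.14-fold and miR535d 2.05-fold lower in MDH, log2 fold changes of -1.10 and -1.04 beside a median of -0.37 over all tested names. The margin past 2-fold was narrow and depended on scale: with median-of-ratios scaling, which shifted the middle of all names by 0.35, the family log2 fold change of -1.08 became -0.73. No miR535 name then passed 2-fold.

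The RPM summed over all names was lower in MDH, and miR535 made up most of the net gap. Being a part of a fixed total, this sum does not measure the size of the miRNA pool, and it may hold the same reads more than once. The sum over all names was 327943 RPM lower in MDH than in HD, of which 253926 RPM, or 77.4%, was miR535. All other names together stood at 276403 RPM in MDH and 350420 RPM in HD, a ratio of 0.789, while the miR535 ratio was 0.472. With near-identical names counted once, miR535 held 78.5% of the gap. These are parts of a net gap, in which higher and lower levels of other names offset each other. For instance, miR1023a-3p was at 45433 RPM in MDH and 3805 RPM in HD, and the miR156 sum at 82797 RPM and 132071 RPM.

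Desiccated gametophores also held less miR535 than hydrated ones. miR535a stood 1.64-fold and miR535d 1.63-fold lower in SDH than in HD. None of the 4 names passed 2-fold, against 13.5% of the 215 tested names that were lower and 18.6% that were higher. Over all tested names the median was 0.02 on the log2 scale, while the family sum was at -0.71, and 37 of 215 names lay at or below that value. Unless said otherwise, counts over tested names include the 4 miR535 names themselves and count each near-identical name. Over the 6 alternatives run for this comparison the family value ranged from -0.74 to -0.64. Other names summed to 335052 RPM in SDH and 350420 RPM in HD, a ratio of 0.956, and miR535 held 92.4% of the net difference of 202239 RPM. Among the other names, higher and lower levels offset each other in that net value. The miR156 sum was 101266 RPM in SDH and 132071 RPM in HD, while miR1023a-3p was at 38776 RPM in SDH and 3805 RPM in HD.

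Between the 2 dried states, desiccation and moderate dehydration, miR535 lay at the middle of all names. The family sum was 1.30 times as high in SDH as in MDH, a log2 difference of 0.37 beside a median of 0.39 over 207 tested names. None of the 4 names passed 2-fold, against 16.4% of names that were higher and 0.966% that were lower. With median-of-ratios scaling, which moved the median of all names by -0.38, the family value was -0.01, so no direction can be given for this step. That scaling gave 14 names higher and 8 lower in place of 34 and 2.

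By RPM, partially rehydrated gametophores showed the widest difference from hydrated ones. The 4 names were all at least 2-fold lower in PRE than in HD, against 18.8% of the 213 tested names that were lower and 21.6% that were higher. miR535a was 2.64-fold and miR535d 2.65-fold lower, log2 fold changes of -1.40 and -1.41 beside a median of -0.19. Of the 213 names 18 lay at or below the value of miR535d. With median-of-ratios scaling the median over all names shifted by 0.10 and the family value was -1.29. When levels were instead set against the sum of all names outside miR535, which moved that median by 0.61, the family value was -0.77 and no member passed 2-fold, while the split of all names became 66 higher and 12 lower in place of 46 and 40. That sum of other names was itself lower, at 225446 RPM in PRE and 350420 RPM in HD. On that scale the family value in MDH against HD was -0.74, close to that in PRE.

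Set against the desiccated state, miR535 was again lower after partial rehydration. The family stood at 0.618 times its SDH level, a log2 difference of -0.69 beside a median of -0.18 over 211 tested names, and 35 of these lay at or below it. None of the 4 names passed 2-fold, against 3.32% lower and 6.16% higher. Names outside the family had a similar ratio as a sum, 0.673. miR535 accounted for 50.6% of the net difference in the summed level, beside shares of 44.7% of that level in PRE and 46.8% in SDH. Set against the sum of other names, the family value was -0.12, and 42 names were higher and 3 lower in place of 13 and 7.

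miR535 was higher again after full rehydration. The family was 1.74 times as high in FRE as in PRE, and the 4 names shared a log2 difference of 0.80 beside a median of 0.03 over 214 tested names. None passed 2-fold, against 7.01% higher and 9.81% lower, and 30 of 214 names lay at or above the family value. Of the net gain of 164470 RPM in the summed level, 134397 RPM, or 81.7%, was miR535, since all other names together were 1.13 times as high in FRE. Over the 6 alternatives the family value ranged from 0.62 to 0.81, so this direction held under each scale tried. Set against the sum of other names, 9 names were higher and 34 lower in place of 15 and 21.

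Fully rehydrated gametophores still held less miR535 than hydrated ones by RPM. miR535a and miR535d were 1.52-fold and 1.53-fold lower in FRE, log2 fold changes of -0.60 and -0.61 beside a median of -0.10, and 43 of 209 tested names lay at or below the family value. None of the 4 passed 2-fold, against 12.0% of names that were lower and 15.3% that were higher. With median-of-ratios scaling the median over all names shifted by 0.12 and the family value was -0.48. Set against the sum of all other names, which moved that median by 0.43, the family value was -0.15, and 50 names were higher and 13 lower in place of 32 and 25.

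**Figure D3:**
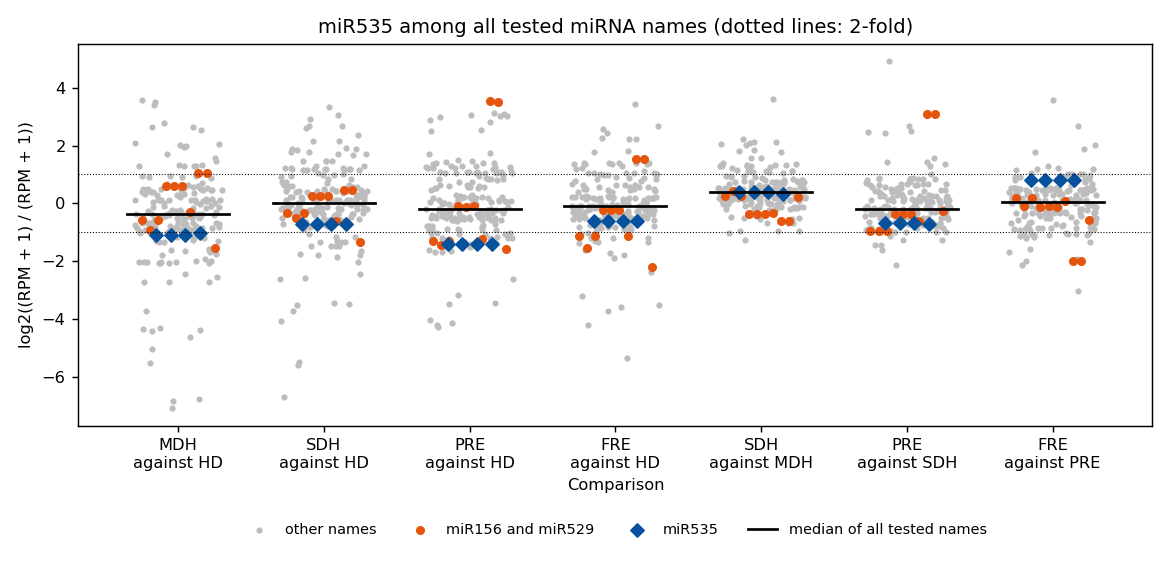
Log2 fold change of every tested miRNA name in each of the 7 comparisons, with miR535 names as blue diamonds, miR156 and miR529 names in orange, a line at the median of all tested names and dotted lines at 2-fold. The miR535 diamonds lie between -1.10 and -1.04 for MDH against HD, between -1.41 and -1.40 for PRE against HD, and at 0.80 for FRE against PRE, where the median is 0.03.

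The authors' deposited table for each comparison with HD gives the same sizes. In the authors' deposited table the log2 fold changes of miR535a were -1.10 in MDH and -0.71 in SDH against HD, and -1.40 in PRE and -0.60 in FRE against HD. All 4 names carry the authors' mark in MDH and PRE and none carries it in SDH and FRE. Of these, miR535a, miR535b and miR535c are 1 observation. The mark is common: 83 of the 235 names listed for MDH (35.3%) and 98 of the 234 for PRE (41.9%) have it. Among names listed for the desiccated state 34.1% are marked, against 27.0% after full rehydration. In the authors' deposited table the p-value of each miR535 name is listed as 0 in all 4 comparisons, as for between 11.6% and 20.9% of the names there. The test behind it is not named. The read total in those tables is 10000000 for every state, so no measured library size is listed beside these p-values. Which total entered them is unknown.

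The relatives miR156 and miR529 offered a comparison within the same tables, where they have 10 names. miR156a, the most abundant form beside its near-copy miR156c, stood at 47234 RPM in HD, 31565 RPM in MDH, 37437 RPM in SDH, 19250 RPM in PRE and 21727 RPM in FRE. miR156b stood at 37601 RPM in HD, 19665 RPM in MDH, 26391 RPM in SDH, 13734 RPM in PRE and 12903 RPM in FRE. Like miR535, these names were lower in all 4 other states than in HD, under both other scalings too. Unlike miR535, they stayed near their PRE level in FRE: the log2 difference between FRE and PRE was 0.17 for miR156a and -0.09 for miR156b, against 0.80 for miR535d.

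A ratio of 2 families in one state does not depend on how the states are scaled. miR535 summed to 3.64 times miR156 in HD, 2.74 times in MDH, 2.91 times in SDH, 3.48 times in PRE and 5.61 times in FRE. Taking 1 name from each family, miR535d over miR156a was 2.74 in HD and 2.0 in MDH, then 2.12 in SDH and 2.54 in PRE, and 3.91 in FRE. Both versions put the lowest ratio in moderate dehydration and the highest in full rehydration, above that of the hydrated state. Against miR536, a family of abundant names in every state, the ratio was 8.09 in HD and 4.69 in MDH, then 4.56 in SDH and 4.55 in PRE, and 5.69 in FRE. Here FRE stayed below HD, unlike in the ratio to miR156.

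**Figure D4:**
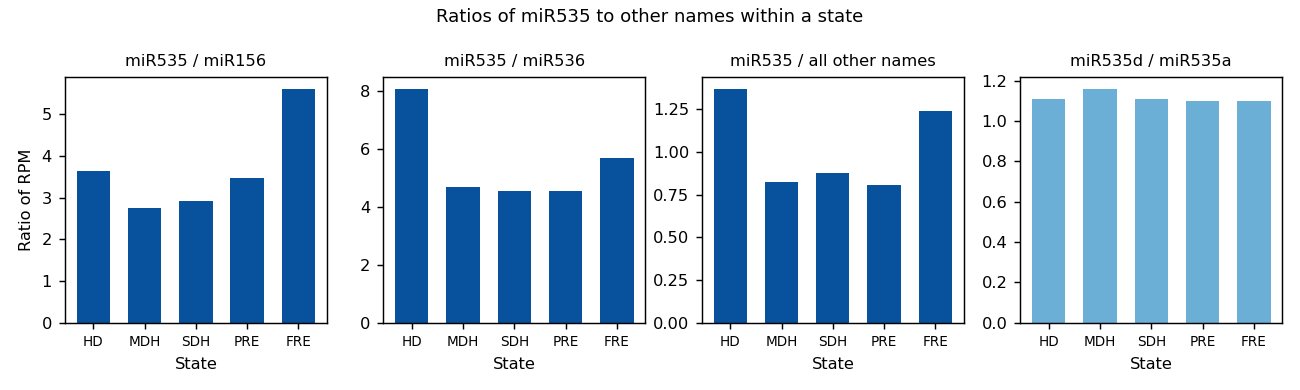
Ratios of RPM within each state: miR535 over miR156, over miR536 and over all other names, each as family sums, and miR535d over miR535a. The ratio to miR156 is 5.61 in FRE, 3.64 in HD and 2.74 in MDH, the ratio to all other names is between 0.807 and 0.878 in MDH, SDH and PRE, 1.24 in FRE and 1.37 in HD, and miR535d over miR535a is 1.16 in MDH and about 1.1 elsewhere.

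miR529 took another course. Its main names, miR529a, miR529b and miR529c, were near-identical to each other, and miR529a stood at 1705 RPM in HD, 2615 RPM in MDH, 2032 RPM in SDH, 1588 RPM in PRE and 1468 RPM in FRE. This family sum was highest in MDH, where miR535 was low, so that miR535 exceeded miR529 82.8-fold in HD, 27.0-fold in MDH, 44.9-fold in SDH, 34.6-fold in PRE and 66.5-fold in FRE. miR529d, at 266 RPM in PRE and 620 RPM in HD, and miR529g, at 13.0 RPM in PRE and 41.3 RPM in HD, were lower than in HD in all 4 other states, as miR535 was, except that miR529d in MDH was at 0.06 with median-of-ratios scaling and 0.05 against the sum of other names, in place of -0.29. The scarce miR529e and miR529f stood apart from both, each at about 107 RPM in PRE and 8.4 RPM in HD.

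Counted as a list, 2 of the 10 miR156 and miR529 names were at least 2-fold higher and 1 lower in MDH against HD, with a median log2 fold change of 0.16. In SDH against HD none was higher and 1 lower, with a median of -0.05. In PRE against HD and in FRE against HD 2 were higher and 5 lower, each with a median of -0.67. Over all tested names, 11.0% were higher and 24.4% lower in MDH, and 18.6% and 13.5% in SDH. PRE had 21.6% higher and 18.8% lower, and FRE 15.3% and 12.0%. With near-identical names counted once, the list had 1 higher and 4 lower in PRE and in FRE. Set against the sum of all other names, 0 of the 10 were lower in PRE and 2 in FRE, and 2 were higher in each. In the 3 steps between neighbouring states the list had no call for SDH against MDH, 2 higher for PRE against SDH and 2 lower for FRE against PRE. The higher names in these counts, and the 2 lower for FRE against PRE, were miR529e and miR529f, which are near-identical and scarce. With a pseudocount of 10 RPM neither passed 2-fold in MDH or FRE against HD.

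The other conserved land-plant families, which by the list used were miR536, miR477, miR408, miR395, miR390, miR319, miR171, miR167, miR166 and miR160, had 51 tested names against HD. Of these 5 were higher and 5 lower in MDH (9 and 3 with median-of-ratios scaling), 9 and 3 in SDH, 10 and 9 in PRE, and 4 and 4 in FRE. Set against the sum of all other names, 15 were higher and 3 lower in PRE, and 8 higher and 1 lower in FRE. Their median log2 fold changes were -0.37 in MDH and -0.05 in SDH, then -0.35 in PRE and -0.10 in FRE, beside values of -1.08, -0.71, -1.40 and -0.61 for the miR535 sum. miR535 was thus lower than the middle of this list in each of the 4 comparisons, which share the HD values. The list leans on few families, as many of its names are near-copies. Its median of -0.37 in MDH was the value of near-identical miR166 names. All names called higher in MDH and SDH were miR477 names, and no miR167 or miR395 name was tested there. With near-identical names counted once, 4 were higher and 5 lower in MDH, and 5 and 3 in SDH. PRE then had 6 and 7, and FRE 3 and 4.

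Some names outside the family had fold changes against HD close to those of miR535. Likeness was measured as the root mean square difference between the log2 fold changes of a name against HD in the 4 other states and those of the miR535 sum, over 97 profiles that reached 30 RPM, with near-identical names counted once. The median difference was 1.03 and the largest 4.99. The 5 closest were miR1222d at 0.33, miR1033a at 0.36, miR902c-3p at 0.38, miR533a at 0.39 and miR1032 at 0.40. All 5 were lower than in HD in each of the other 4 states by RPM, which their choice by nearness to miR535 favours. Set against the sum of other names, miR902c-3p, miR533a and miR1032 were instead above HD in FRE, at 0.35, 0.21 and 0.15, and miR902c-3p was at 0.02 there with median-of-ratios scaling. miR156a followed in place 6 at 0.41 and miR156b in place 12 at 0.49. These fold changes all share the HD value and rest on 5 states, so the order of such close values is a description only.

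The closest profile differed most from miR535 at moderate dehydration. miR1222d stood at 342 RPM in HD, 110 RPM in MDH, 163 RPM in SDH, 127 RPM in PRE and 238 RPM in FRE, a log2 fold change of -1.63 in MDH against -1.08 for miR535. The miR1033a value is the mean of 5 near-identical names, at 5055 RPM in HD, 2833 RPM in MDH, 3958 RPM in SDH, 2787 RPM in PRE and 2879 RPM in FRE. It lay nearer to miR535 in MDH, at -0.84 against -1.08, than in PRE, at -0.86 against -1.40. Like miR156a, it stayed near its PRE level in FRE. For the name miR1033a alone the log2 difference between FRE and PRE was 0.06, against 0.80 for the miR535 sum. miR902c-3p stood at 1797 RPM in HD, 882 RPM in PRE and 1674 RPM in FRE, so that it came closer to its hydrated level in FRE than miR535 did. The same was true of miR1032, at 1575 RPM in HD, 460 RPM in MDH and 1273 RPM in FRE, and of miR533a, whose log2 fold change in FRE, over the mean of 3 near-identical names, was -0.25.

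**Figure D5:**
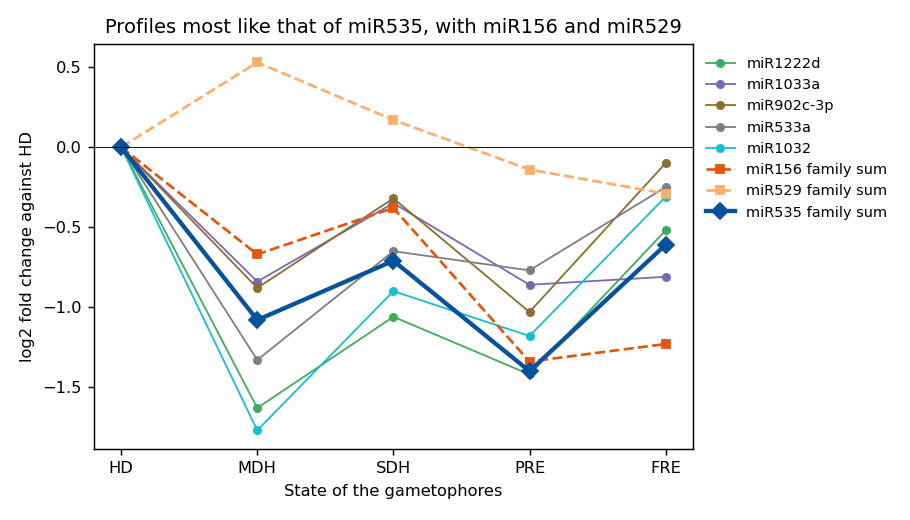
Log2 fold change against HD in each state for the miR535 sum (thick blue line), the 5 names whose course was closest to it, and the miR156 and miR529 sums (dashed). The miR535 line runs through -1.08 in MDH and -0.71 in SDH, then -1.40 in PRE and -0.61 in FRE, the miR156 line stays at -1.23 in FRE, and the miR529 line is at 0.53 in MDH.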

How the data were processed

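Per the labels' protocols, RNA fragments of 18 to 30 nt were enriched from total RNA, adaptors were ligated at both ends, and the product was reverse transcribed and amplified by PCR. Ligation and PCR favour some small RNAs, so levels of different miRNAs compare less well than those of 1 miRNA between states. No source used here gives the aligner, the build or the miRNA reference.

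The level tables hold RPM values as deposited, in steps of 0.1, with 1 column per state. The tables of comparisons hold, per the file headers, RPM, a total and an expression value treated as a score (10 times the RPM), the authors' log2 fold changes and the authors' p-values. Zeros are 0.01 there. The deposited marks are the authors' own calls. No column holds a single sample, so depth is unknown and no interval, floor or test was possible, whereas the written design foresaw tests if replicates were deposited.

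The 4 tables were joined by name with Python 3.11.15, pandas 2.3.3 and NumPy 2.4.6. Fold changes used a pseudocount of 1 RPM, which is negligible for miR535, and a minimum of 3 RPM in the higher state for all names. Near-identical names are those of 1 family that differed by at most 5% or 0.5 RPM in every state. They include 121 of the 280 names, and 201 values remain when each set counts once. Named are the 4 members, miR156 and miR529 names reaching 30 RPM, the top name outside miR535 in each state and the 5 closest profiles. miR536, the miR1023 share and the likeness places of miR156 were singled out after their values were seen. The members and lists were chosen with earlier results of these data known. Alternatives were other pseudocounts, minimums and scales, and other ways of counting copies. The procedure was run on simulated levels without noise, in which exact changes and scaled copies of the miR535 course were planted. Their recovery checks the arithmetic only, and not how reliable calls or likeness places are on single values.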

Additional observations from a re-analysis of the deposited data

How the results depend on the processing

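Of 42 alternative values of the miR535 family log2 fold change, 38 kept their direction and their side of 2-fold. Most of the 42 were pseudocounts or ways of counting names that moved together, which could hardly change the value, so this count does not measure robustness. Those that did not keep it were all rescalings. Counted as kept were also FRE against HD at -0.15 in place of -0.61, and PRE against SDH at -0.12 in place of -0.69, both scaled to the sum of all other names. With median-of-ratios scaling MDH against HD was -0.73, and SDH against MDH was -0.01 (-0.05 for miR535d alone), so that its direction turned. Scaled to the sum of all other names, MDH against HD was -0.74 and PRE against HD -0.77. In those 3 cases of MDH and PRE against HD, 0 of the 4 names passed 2-fold lower in place of 4. The shares moved with their definition. With near-identical names counted once they were 54.8% in HD and 41.2% in MDH, then 43.2% in SDH and 41.2% in PRE, and 51.9% in FRE. Over conserved families alone they were 67.1% in HD and 57.1% in MDH, then 58.8% in SDH and 59.6% in PRE, and 67.4% in FRE. Over 1000000, with all 4 names added, they were 48.1% in HD and 22.7% in MDH, then 29.4% in SDH and 18.2% in PRE, and 31.6% in FRE. With the highest name for each family, an alternative chosen after seeing the data, they were 45.7% in HD and 31% in MDH, then 32.9% in SDH and 30.5% in PRE, and 39.7% in FRE.

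The background counts were less stable: 29 of 98 alternative counts over all names moved by over 1.5 times. With a minimum of 30 RPM, 13, 20, 24 and 11 names were higher in MDH, SDH, PRE and FRE against HD, in place of 23, 40, 46 and 32. Scaled to all other names, 12 were lower in PRE against HD in place of 40. Of 294 alternative counts over the 3 lists 65 moved as much. No paired analysis was possible because the columns carry 1 value per state and no replicate, and for the same reason no replicate could be left out.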
